A study of Homo sapiens with 9 samples.

Results

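The report is about 8 genes of prostaglandin synthesis and prostaglandin reception in HK-2 cells, an immortalised line derived from human renal proximal tubule epithelium. The genes are PLA2G4A, PTGS1, PTGS2, PTGES, PTGES2, HPGD, PTGER2 and PTGER4, chosen by symbol and matched to Ensembl identifiers. All 8 were found among the 58884 identifiers of the deposited tables. RNA was sequenced from 9 libraries in 3 groups of 3. Cells of the lactoferrin+PM2.5 group received lactoferrin (40 mg/ml in the series text), an iron-binding glycoprotein, for 6 h, and then fine airborne particulate matter, PM2.5 (1 mg/ml in the series text), for 18 h. Cells of the PM2.5 group are labelled with 24 h of PM2.5 and no lactoferrin, with no dose of their own stated. Control cells are labelled untreated, while the treatment protocol speaks of a vehicle for controls. The mg/ml units are as the series text has them and could not be checked here. All groups shared the HK-2 line and a serum-free keratinocyte medium with pituitary extract and EGF. No group received lactoferrin without PM2.5, and the PM2.5 times of the exposed groups differ, so neither can be told apart from the pretreatment.

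Prostaglandins are lipid mediators made from arachidonic acid. A phospholipase A2 frees arachidonic acid from membrane phospholipid, a cyclooxygenase converts it to PGH2, and terminal synthases turn PGH2 into PGE2 and other prostanoids. HPGD ends the signal by oxidising PGE2, and cell surface receptors pass it on. In the kidney, PGE2 is known for its part in salt and water handling and in blood flow.

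The values are FPKM (fragments scaled to gene length and to library depth), so that levels can be compared between genes of different length. Libraries held 15314487 to 18816304 assigned reads or fragments, and the mitochondrial share was between 5.79% and 9.33%. Lactoferrin+PM2.5 replicate 1 (38 on principal component 2) and control replicate 3 (27.1 on principal component 3) stood apart from the other libraries of their groups. Of 15 proximal tubule markers, 10 stayed below 1 FPKM in every library, LRP2, CUBN and HNF4A among them, whereas PAX8 averaged 73.7 FPKM in lactoferrin+PM2.5, 82.3 FPKM in PM2.5 and 52.2 FPKM in control. The summed proximal tubule markers lay between 114 and 142 FPKM in lactoferrin+PM2.5, 156 and 163 FPKM in PM2.5, and 177 and 197 FPKM in control. Of 6 epithelial markers, 1 stayed below 1 FPKM in every library. Their sum lay between 286 and 373 FPKM in lactoferrin+PM2.5, 281 and 293 FPKM in PM2.5, and 336 and 368 FPKM in control. They did not move together: KRT8 averaged 82.4, 67.1 and 103 FPKM in the same groups, and KRT18 73.5, 58.9 and 49.9 FPKM. All 4 endothelial and 6 of 7 immune markers stayed below 1 FPKM throughout. The summed fibroblast markers, mostly LUM, lay between 50.7 and 55.0 FPKM in lactoferrin+PM2.5, 66.2 and 68.0 FPKM in PM2.5, and 48.0 and 54.3 FPKM in control. Other markers of that list went the other way: COL1A1 averaged 1.14 FPKM in lactoferrin+PM2.5, 1.42 FPKM in PM2.5 and 6.77 FPKM in control, and PDGFRB 0.0788, 0.0881 and 0.334 FPKM in the same groups. What part these shifts have in the results below was not tested.

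In PM2.5-exposed cells, against control, the phospholipase gene PLA2G4A and the cyclooxygenase gene PTGS1 were higher, and the gene of the degrading enzyme, HPGD, and the receptor gene PTGER2 were lower. PLA2G4A was 3.69 times its control mean, PTGS1 1.86 times, HPGD 0.193 times and PTGER2 0.799 times, as ratios of mean FPKM. The inducible cyclooxygenase gene PTGS2 stayed under 0.4 FPKM in every library. Lactoferrin before PM2.5 left all 7 tested genes without a call against PM2.5 alone. Of the 8 genes, 7 passed the filter on low values (0.5 FPKM in at least 3 libraries). HPGD passed it mainly through its high level in control, so its presence among the tested genes is itself tied to a difference.

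**Figure D1:**
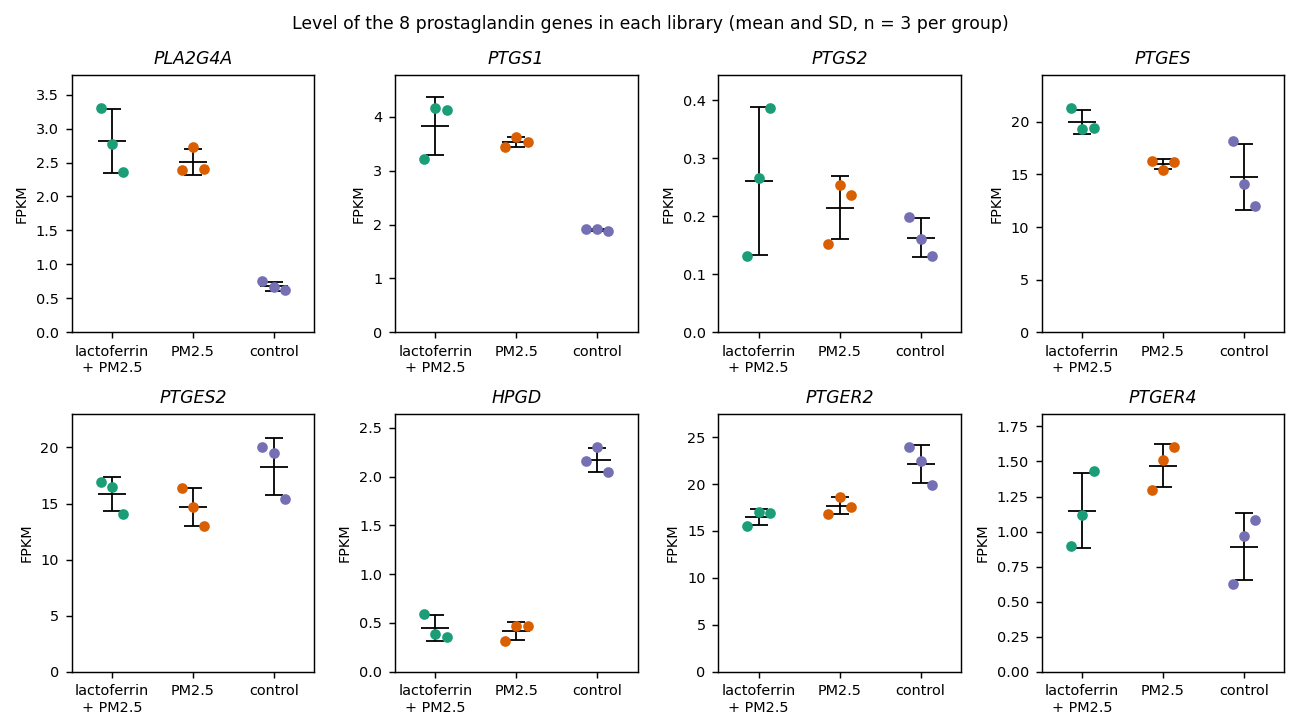
Level in FPKM (vertical axis, from 0) of each of the 8 genes in lactoferrin+PM2.5, PM2.5 and control libraries; points are libraries, and the horizontal marks and bars are the mean and SD of 3. PLA2G4A and PTGS1 are higher and HPGD is lower in all 6 exposed libraries than in all 3 control libraries, and PTGS2 does not exceed 0.386 FPKM.

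PLA2G4A (ENSG00000116711, GRCh38 chromosome 1, 186828953 to 186988981, plus strand) encodes cytosolic phospholipase A2 alpha, which releases arachidonic acid from phospholipid. Its level was 2.39, 2.73 and 2.41 FPKM in PM2.5 libraries, against 0.749, 0.671 and 0.617 FPKM in control libraries. The groups did not overlap. The log2 fold change on the log2(FPKM + 0.5) scale was 1.32 ± 0.12 (SE; limma adjusted p = 6.71e-05). That scale understates the change of low genes, and the rebuilt reads of PLA2G4A lay between 31 and 179 per library. In lactoferrin+PM2.5 libraries the level was 3.3, 2.77 and 2.36 FPKM, which overlaps PM2.5 and lies above control throughout.

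PTGS1 (ENSG00000095303, chromosome 9, 122370530 to 122395703, plus strand) encodes the cyclooxygenase that most cells make constitutively. It stood at 3.44, 3.63 and 3.54 FPKM in PM2.5 libraries, against 1.91, 1.91 and 1.88 FPKM in control libraries. The SD of the control libraries was 0.0152 FPKM, and every PM2.5 library was higher. Its log2 fold change was 0.71 ± 0.10 (adjusted p = 0.000605). Lactoferrin+PM2.5 libraries held 3.21, 4.16 and 4.13 FPKM, the lowest of them being replicate 1. Its annotated span also holds the sense intronic transcript AL162424.1 (0 to 0.591 FPKM).

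PTGS2 (ENSG00000073756, chromosome 1, 186671791 to 186680427, minus strand) encodes the cyclooxygenase known for its induction by cytokines and growth factors. Its level was 0.131, 0.266 and 0.386 FPKM in lactoferrin+PM2.5 libraries, 0.153, 0.254 and 0.237 FPKM in PM2.5 libraries, and 0.198, 0.161 and 0.131 FPKM in control libraries. All 3 groups overlapped. These levels correspond to 13, 24 and 32 rebuilt reads with lactoferrin+PM2.5, 15, 24 and 22 with PM2.5, and 16, 14 and 12 in control. PTGS2 did not pass the filter. In a fit with no filter, the difference between PM2.5 and control was 0.10 on the log2 scale with a 95% interval from -0.22 to 0.42 (adjusted p = 0.705). A difference of that size was not detectable at this depth, and the interval is on a scale that understates changes at so low a level.

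PTGS1 thus made up most of the cyclooxygenase mRNA in every library, as a share of the summed FPKM of PTGS1 and PTGS2. The share was 96.1%, 94.0% and 91.4% with lactoferrin+PM2.5, 95.7%, 93.5% and 93.7% with PM2.5, and 90.6%, 92.2% and 93.5% in control. These shares overlap between the groups.

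PLA2G4A and PTGS2 are neighbours on chromosome 1, transcribed away from each other, with starts 148526 bp apart in GENCODE release 29. The promoter windows of these genes are shown beside those of PTGS1, which rose with PLA2G4A, and HPGD, which fell. Each runs from 250 bases before to 50 bases after a RefSeq start (GRCh38.p14). All 8 genes matched RefSeq windows, and where a gene had several starts, the one listed earliest is shown. Capitals mark matches, on either strand, to 6 motifs. These are TATAAA as the core promoter box, GGGCGG as the site of Sp1-type factors, CGTCA as the core of the cAMP response element, TGANTCA as the site of AP-1, TGACNNNGC as the core of the antioxidant response element, and GCGTG as the core of the aryl hydrocarbon receptor element.
PLA2G4A, chr1:186828699-186828998, plus strand: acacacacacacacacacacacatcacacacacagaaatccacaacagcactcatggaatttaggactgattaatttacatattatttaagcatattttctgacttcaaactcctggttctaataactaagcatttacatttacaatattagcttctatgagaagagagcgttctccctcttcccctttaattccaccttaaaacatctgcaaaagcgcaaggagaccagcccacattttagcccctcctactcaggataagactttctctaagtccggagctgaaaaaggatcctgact
PTGS2, chr1:186680374-186680673, minus strand: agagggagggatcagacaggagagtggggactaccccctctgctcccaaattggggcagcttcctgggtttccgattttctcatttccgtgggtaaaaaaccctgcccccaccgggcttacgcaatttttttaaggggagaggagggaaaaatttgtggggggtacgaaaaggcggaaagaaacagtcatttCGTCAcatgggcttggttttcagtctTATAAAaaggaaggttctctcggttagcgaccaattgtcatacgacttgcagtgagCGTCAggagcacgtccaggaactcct
PTGS1, chr9:122370283-122370582, plus strand: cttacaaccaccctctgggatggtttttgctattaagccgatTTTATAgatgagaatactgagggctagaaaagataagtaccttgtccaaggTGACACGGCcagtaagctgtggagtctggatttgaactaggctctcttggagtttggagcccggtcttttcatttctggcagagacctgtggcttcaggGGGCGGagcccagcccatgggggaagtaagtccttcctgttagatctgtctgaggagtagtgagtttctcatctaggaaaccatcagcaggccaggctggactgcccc
HPGD, chr4:174522439-174522738, minus strand: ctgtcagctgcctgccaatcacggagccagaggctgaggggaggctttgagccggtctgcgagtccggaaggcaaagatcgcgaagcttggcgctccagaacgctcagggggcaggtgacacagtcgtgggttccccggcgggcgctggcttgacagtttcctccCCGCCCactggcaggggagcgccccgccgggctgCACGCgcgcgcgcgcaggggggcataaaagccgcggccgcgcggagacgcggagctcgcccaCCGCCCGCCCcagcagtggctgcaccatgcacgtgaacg

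The PLA2G4A window held no match to any of the 6 motifs. The PTGS2 window held TATAAA from -32 to -27, counted from the start, and CGTCA at -58 to -54 and 24 to 28. The PTGS1 window held GGGCGG at -58 to -53, TGACACGGC at -157 to -149 and a reverse match to TATAAA at -208 to -203. The HPGD window held 3 reverse matches to GGGCGG, of which those at 11 to 16 and 15 to 20 overlap, and a reverse match to GCGTG at -51 to -47. PTGS1 and HPGD each had another listed start, not shown. The window there held a reverse match to GGGCGG alone for PTGS1, and CGTCA alone for HPGD. Of all 35116 windows of 300 bases, 11.5% held TATAAA, 45.0% GGGCGG, 24.6% CGTCA, 7.7% TGANTCA, 13.3% TGACNNNGC and 36.5% GCGTG. The reverse of CGTCA can overlap TGACNNNGC, and GCGTG can overlap GGGCGG. A match describes letters in the window and does not show that a factor binds there.

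PTGES (ENSG00000148344, chromosome 9, 129738331 to 129753047, minus strand) encodes the inducible microsomal PGE synthase, which works downstream of cyclooxygenase. It stood at 16.3, 15.4 and 16.2 FPKM in PM2.5 libraries and at 18.2, 14.1 and 12.0 FPKM in control libraries. The PM2.5 values lie inside the control range, and the difference of 0.08 ± 0.12 on the log2 scale was not called (adjusted p = 0.63). It was -0.03 without control replicate 3. With lactoferrin+PM2.5 the level was 21.3, 19.3 and 19.4 FPKM, above every PM2.5 and control library. Against PM2.5 the difference was 0.31 ± 0.12 (unadjusted p = 0.0272, adjusted p = 0.386) and was not called. Against control PTGES was higher by 0.40 ± 0.12 (adjusted p = 0.0277). That call ended under 7 of 20 other settings. Among them, it ended when control replicate 2 (0.36, adjusted p = 0.103), control replicate 3 (0.29, 0.095), lactoferrin+PM2.5 replicate 1 (0.34, 0.0727) or lactoferrin+PM2.5 replicate 2 (0.42, 0.0561) was left out, and over the 20 settings the adjusted p ran from 0.004 to 0.16.

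PTGES2 (ENSG00000148334, chromosome 9, 128120693 to 128128462, minus strand) encodes a membrane-associated PGE synthase. Its level was 16.4, 14.7 and 13.0 FPKM in PM2.5 libraries and 20.0, 19.5 and 15.4 FPKM in control libraries, with control replicate 3 inside the PM2.5 range. The difference was -0.35 ± 0.12 (adjusted p = 0.0532), just above the threshold of 0.05. It passed under 9 of 20 other settings, with adjusted p between 0.00537 and 0.2. Lactoferrin+PM2.5 libraries held 16.9, 16.5 and 14.1 FPKM.

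HPGD (ENSG00000164120, chromosome 4, 174490177 to 174523154, minus strand) encodes the NAD-dependent dehydrogenase that inactivates PGE2. Its level was 0.311, 0.473 and 0.472 FPKM in PM2.5 libraries, against 2.16, 2.3 and 2.05 FPKM in control libraries. The groups were far apart, with the highest PM2.5 library well under the lowest control library. The log2 fold change was -1.58 ± 0.14 (adjusted p = 4.48e-05), the largest in size among the 7 tested genes in this comparison. With lactoferrin+PM2.5 the level was 0.596, 0.39 and 0.356 FPKM, which overlaps PM2.5. In these bulk libraries, fewer cells with the transcript and less transcript per cell cannot be told apart.

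PTGER2 (ENSG00000125384, chromosome 14, 52314305 to 52328606, plus strand) and PTGER4 (ENSG00000171522, chromosome 5, 40679498 to 40693735, plus strand) encode EP2 and EP4, PGE2 receptors that raise cAMP. PTGER2 stood at 16.8, 18.6 and 17.6 FPKM in PM2.5 libraries, against 23.9, 22.5 and 19.9 FPKM in control libraries. The groups did not overlap, and PTGER2 fell by 0.36 on the log2 scale (SE 0.07, adjusted p = 0.00503). PTGER4 was at 1.3, 1.51 and 1.6 FPKM in PM2.5 libraries, against 0.626, 0.971 and 1.08 FPKM in control libraries. These groups did not overlap either, and the difference of 0.48 ± 0.17 missed the threshold (adjusted p = 0.0513). It passed under 10 of 20 other settings, with adjusted p between 0.0141 and 0.16. PTGER4 is overlapped on the opposite strand by TTC33 (1.26 to 1.95 FPKM), and the strand setting of the counting is not given in the sources used here.

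Among 9 prostanoid receptor genes, PTGER2 held most of the summed FPKM in every library. Its share was 79.3%, 77.8% and 78.5% with lactoferrin+PM2.5, 79.9%, 81.2% and 76.9% with PM2.5, and 87.5%, 86.9% and 82.9% in control. Every exposed library was below every control library in that share. The share is built from the PTGER2 values already called lower above, so it is not a separate result. PTGER1 held 7.5%, 5.66% and 4.19% with lactoferrin+PM2.5, 4.15%, 2.59% and 4.21% with PM2.5, and 1.69%, 1.82% and 1.86% in control. Its control shares rest on 32 rebuilt reads summed over the group. PTGER4 held 4.6%, 5.11% and 6.68% with lactoferrin+PM2.5, 6.19%, 6.6% and 6.99% with PM2.5, and 2.29%, 3.75% and 4.52% in control.

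**Figure D2:**
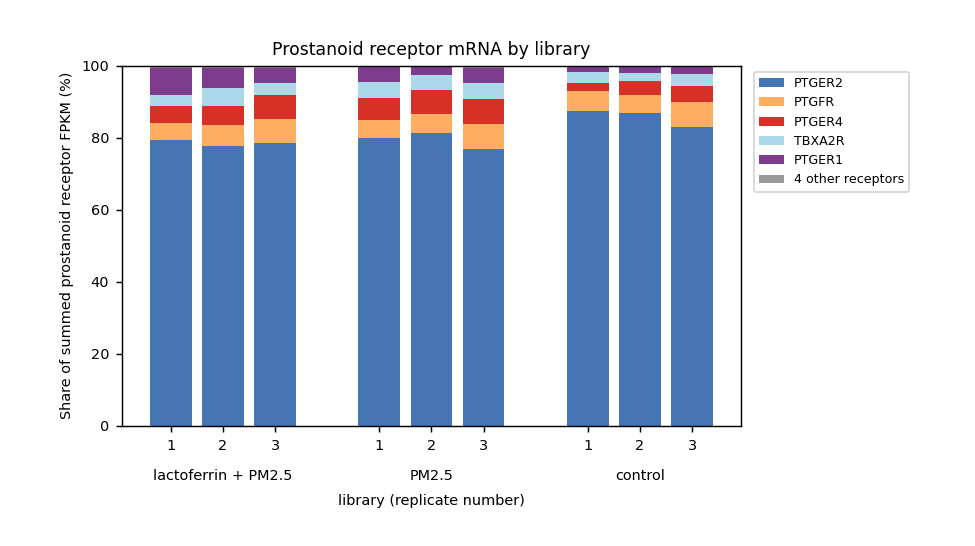
Share in % (vertical axis) of the summed FPKM of 9 prostanoid receptor genes in each library of the lactoferrin+PM2.5, PM2.5 and control groups; each bar is 1 library, with no error bar. PTGER2 fills 76.9% to 81.2% of the bars of exposed libraries and 82.9% to 87.5% of the control bars.

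Counted over the tested genes, 2 of 7 were called higher and 2 lower with PM2.5 against control at an adjusted p under 0.05. Over all 14454 genes tested in the same fit, 18.5% were called higher and 16.5% lower, and the median log2 fold change was 0.08 over the 7 genes and 0.00 over all genes. With 7 genes, 2 in each direction is not a result about the group, and the values stand gene by gene.

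**Figure D3:**
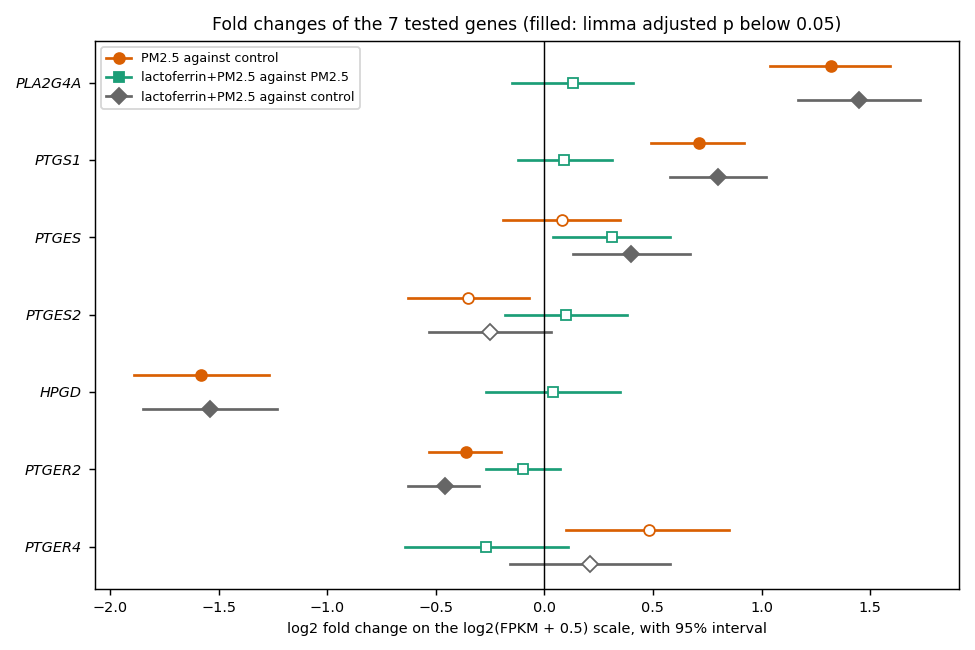
Log2 fold change on the log2(FPKM + 0.5) scale (horizontal axis) with its 95% interval for the 7 tested genes in PM2.5 against control, lactoferrin+PM2.5 against PM2.5, and lactoferrin+PM2.5 against control; filled symbols have a limma adjusted p below 0.05. The symbols for lactoferrin+PM2.5 against PM2.5 lie between -0.27 and 0.31 and none is filled.

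With lactoferrin before PM2.5, against PM2.5 alone, 0 of 7 genes were called in either direction. Over all genes 0.0208% were called higher and 0.0277% lower, 7 genes in all. At an unadjusted p under 0.05 there was 1 of the 7 genes, PTGES, beside 1765 of 14454 over all genes, and limma-voom on rebuilt reads also called 0. The 95% intervals bound the differences that these libraries allow, on the log2(FPKM + 0.5) scale. They ran from -0.15 to 0.41 for PLA2G4A, -0.12 to 0.31 for PTGS1, 0.04 to 0.58 for PTGES and -0.18 to 0.38 for PTGES2. They ran from -0.27 to 0.35 for HPGD, -0.27 to 0.07 for PTGER2 and -0.64 to 0.11 for PTGER4. The intervals of PLA2G4A, PTGS1 and HPGD do not reach the size of their changes with PM2.5, 1.32, 0.71 and -1.58. They also stay short of the 95% intervals of those changes, 1.04 to 1.59, 0.49 to 0.92 and -1.89 to -1.27. The interval of PTGER2 does not reach its change of -0.36 but overlaps the 95% interval of that change, -0.53 to -0.2. These genes were taken because they were called with PM2.5, and both comparisons use the same PM2.5 libraries, so the intervals are not independent. PTGER4 was at 0.9, 1.12 and 1.43 FPKM with lactoferrin+PM2.5, between the PM2.5 and control means, and overlapped both groups.

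With lactoferrin+PM2.5 against control, a comparison that shares its control libraries with the PM2.5 comparison, 3 of 7 genes were called higher and 2 lower. The shares over all genes were 19.6% and 18.5%. PLA2G4A differed by 1.45 ± 0.12 (adjusted p = 2.96e-05), PTGS1 by 0.80 ± 0.10 (0.000241) and HPGD by -1.54 ± 0.14 (4.13e-05). PTGER2 stood at 15.5, 17.0 and 16.9 FPKM, a difference of -0.46 ± 0.07 (adjusted p = 0.00119). PTGES2 (-0.25 ± 0.12, adjusted p = 0.143) and PTGER4 (0.21 ± 0.17, adjusted p = 0.352) were not called.

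The order of levels differed between the groups. In control it ran PTGER2, PTGES2, PTGES, HPGD, PTGS1, PTGER4, PLA2G4A and PTGS2 by mean FPKM. The ranges of PTGER2 and PTGES2, of PTGES2 and PTGES, and of PTGER4 and PLA2G4A overlapped there. With PM2.5, HPGD stood after PTGER4 and before PTGS2, and PLA2G4A after PTGS1. With PM2.5 the ranges of PTGES and PTGES2 were the only ones that overlapped between neighbours in the order. With lactoferrin+PM2.5, PTGES came before PTGER2, and PTGER2 and PTGES2, PTGS1 and PLA2G4A, and HPGD and PTGS2 overlapped.

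A wider list of 63 genes covered phospholipid release, other prostanoid synthases, transport and breakdown, other receptors, and the lipoxygenase and epoxygenase branches. Of these, 36 passed the filter, and 14 were called higher and 4 lower with PM2.5 against control, beside the 18.5% and 16.5% over all genes. Their median log2 fold change was 0.30 against 0.00 over all genes. Among prostanoid synthases 6 of 8 tested genes rose and 0 fell, with a median of 0.61. The list was chosen with earlier results of these data known, so these counts are not a result about the families.

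TBXAS1, thromboxane synthase, averaged 4.16 ± 0.0815 FPKM with PM2.5 and 1.46 ± 0.244 FPKM in control (SD, n = 3 each), a ratio of 2.84 (limma adjusted p = 2.57e-05). PTGIS, prostacyclin synthase, was at 1.54, 1.44 and 1.51 FPKM with PM2.5 and 0.692, 0.716 and 0.803 FPKM in control (0.66 ± 0.10, adjusted p = 0.00143). Of 4 genes whose enzymes can make PGF2, 3 rose: AKR1C3 by 1.02 ± 0.16, PRXL2B by 0.72 ± 0.09 and CBR1 by 0.57 ± 0.12. The remaining gene, AKR1B1, was by far the most abundant of them at 932 FPKM on average with PM2.5 and 950 FPKM in control, and was not called (-0.06 ± 0.15, adjusted p = 0.769). AKR1C3 belongs to a family of near-identical genes, so its share of reads is uncertain. PTGES3, a cytosolic PGE synthase better known as a chaperone partner, averaged 240 FPKM with PM2.5 and 162 FPKM in control (0.52 ± 0.10, adjusted p = 0.00391).

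For arachidonic acid supply, MGLL, the lipase of 2-arachidonoylglycerol, averaged 32.0 FPKM with PM2.5 and 13.9 FPKM in control (1.13 ± 0.08, adjusted p = 1.42e-05). ACSL4, which activates arachidonic acid for return to phospholipid, rose by 0.55 ± 0.12, and the triglyceride lipase gene PNPLA2 fell by 0.83 (SE 0.10). SLCO2A1, the prostaglandin uptake transporter that delivers PGE2 to HPGD, averaged 0.488 FPKM with PM2.5 and 1.09 FPKM in control (-0.72 ± 0.13, adjusted p = 0.00295). Only its control libraries reached 0.5 FPKM, so SLCO2A1 passed the filter through the group where it is high. Of 7 tested genes for inactivation and transport, 1 was called higher and 2 lower, beside 18.5% and 16.5% over all genes. The higher was SLCO3A1, another transporter of the list, with 2.44 FPKM on average with PM2.5 and 1.4 FPKM in control (0.60 ± 0.12, adjusted p = 0.00505), and the other lower was CBR4 (-0.49 ± 0.10, adjusted p = 0.00539). Both are named after their values were seen.

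In the lipoxygenase branch 1 of 5 tested genes rose and 1 fell, shares near the 18.5% and 16.5% over all genes. ALOXE3, an epidermal lipoxygenase, averaged 1.14 FPKM with PM2.5 and 0.176 FPKM in control, and the groups did not overlap (1.26 ± 0.15, adjusted p = 0.000255). No control library reached 0.5 FPKM, so ALOXE3 passed the filter through the exposed groups alone, as did PTGER1. ALOX5AP, needed for leukotriene synthesis, was at -0.56 ± 0.13 (adjusted p = 0.0099). In the epoxygenase branch EPHX1, an epoxide hydrolase, rose by 0.70 ± 0.09 and CYP2J2, an arachidonic acid epoxygenase, by 0.65 ± 0.13. None of the 4 other tested receptor-list genes was called in this comparison, where PTGER1, the EP1 receptor gene, was at 0.81 and 0.46 FPKM on average with PM2.5 and in control (0.41 ± 0.17, adjusted p = 0.0829).

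**Figure D4:**
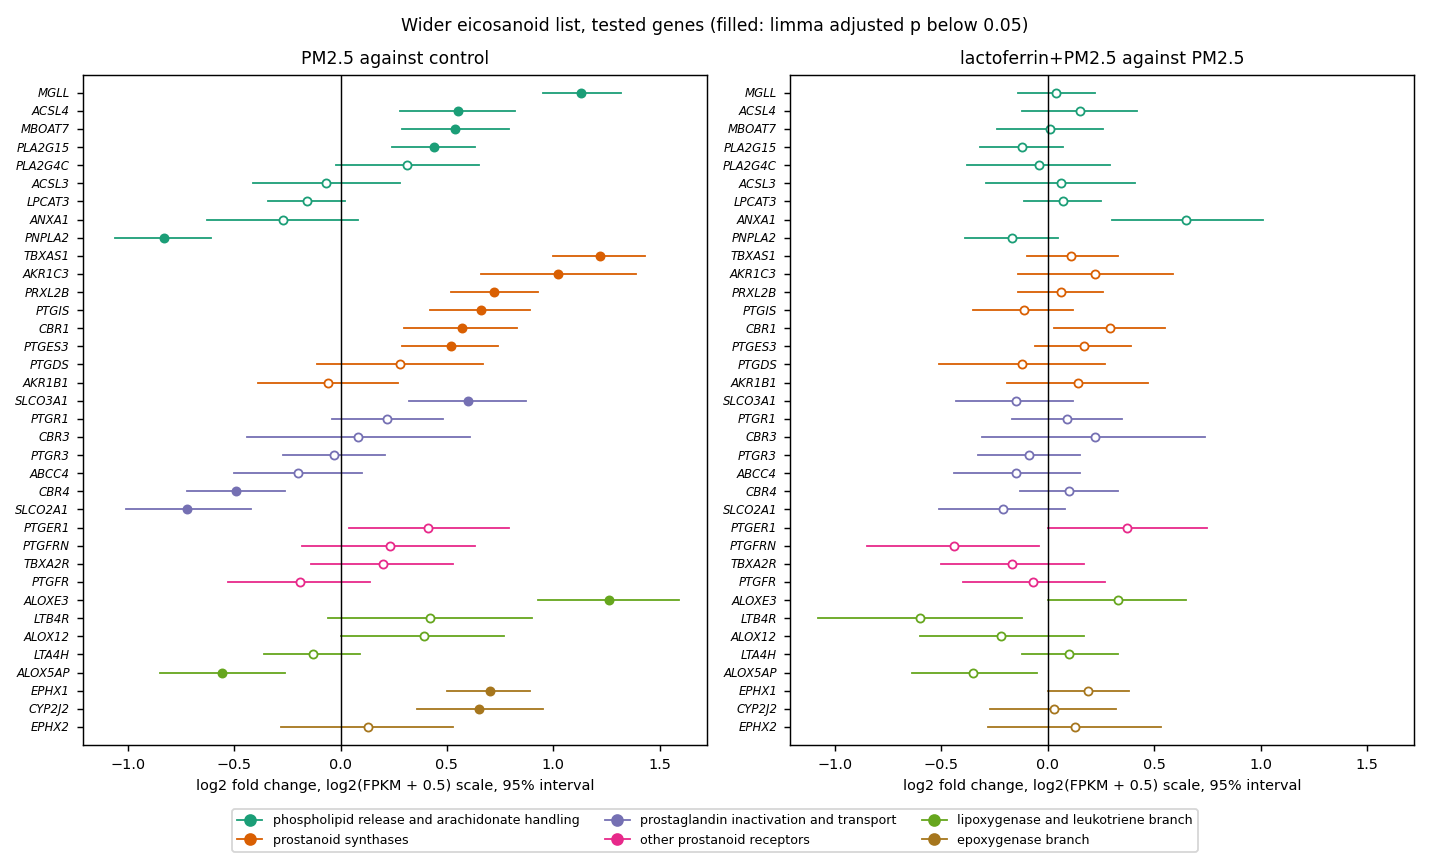
Log2 fold change on the log2(FPKM + 0.5) scale (horizontal axis) with its 95% interval for the 36 tested genes of the wider list, grouped by branch, in PM2.5 against control (left) and lactoferrin+PM2.5 against PM2.5 (right); filled symbols have a limma adjusted p below 0.05. At the left 14 filled symbols lie above 0 and 4 below, and at the right 0 are filled.

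With lactoferrin+PM2.5 against PM2.5, 0 of the 36 genes were called by limma or limma-voom, and 5 had an unadjusted p under 0.05. Over all genes 1765 of 14454 had one, a like share. The 5 are named here after their values were seen. ANXA1, annexin A1, known as an inhibitor of phospholipase A2, stood at 60.5, 42.8 and 38.5 FPKM with lactoferrin+PM2.5, against a mean of 29.3 FPKM with PM2.5 and no overlap (0.65 ± 0.16, adjusted p = 0.269). The highest of these ANXA1 values, 60.5 FPKM, is that of lactoferrin+PM2.5 replicate 1, the library that stood apart on principal component 2. The leukotriene B4 receptor gene LTB4R, which overlaps LTB4R2 on the same strand so that its reads are uncertain, was at -0.60 ± 0.21, PTGFRN at -0.44 ± 0.18, ALOX5AP at -0.35 ± 0.13 and CBR1 at 0.29 ± 0.12. With lactoferrin+PM2.5 against control 15 of the 36 genes were called higher and 4 lower, beside 19.6% and 18.5% over all genes, and PTGER1 was among the higher (1.2 against 0.46 FPKM on average, adjusted p = 0.00537).

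By Pearson's r of log2 values over the 9 libraries, the genes most like PTGS2 were SNORA66 (0.928), GLUD1P3 (0.915), IRX3 (0.894), PITPNM3 (0.883) and ATXN7L2 (0.88), out of 11209 ranked. PTGS2 rests on 12 to 32 reads per library, and its ranking carries the counting error of so few reads. For PLA2G4A, ranked after its values were seen, RPS6KA1 (0.998), HERPUD1 (0.995), DDIT3 (0.995), LINC02904 (0.994) and PSMD11 (0.994) came closest. For HPGD they were LMCD1 (0.995), SLC17A3 (0.994), HOGA1 (0.994), UBE2J1 (0.993) and TUBA1A (0.993). The points share the same 9 libraries and the contrast between control and exposed cells.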

How the data were processed

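RNA was measured in 9 HK-2 libraries, grouped by the treatment labels. Per the submitters' processing notes, the build was GRCh38 and the tools named were featureCounts 1.6.0, HISAT2 2.1.0, DESeq2 1.22.1 and Trimmomatic 0.38. Their order, their settings, the annotation and the use of strand: not given in the sources used here. The deposited values were FPKM made by the authors, 1 file per library. The unit was read from the values: times GENCODE release 29 union exon length, 86.0% to 87.2% of values of at most 200 reads were whole multiples of 1 step within 0.05. That step gave the depth and the rebuilt reads. Lengths matched 58611 identifiers.

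FPKM were divided by trimmed-mean factors (0.93 to 1.03). log2(FPKM + 0.5) was modelled over all 9 libraries as 3 group means (limma 3.58.1 in R 4.3.3, with trend and robust eBayes). Benjamini-Hochberg adjustment was over 14454 genes with at least 0.5 FPKM in at least 3 libraries. The fit was run on simulated counts with the same dispersion for every gene and no outlying library. Some libraries here stand apart, so that run does not show how the fit performs on these data. Levels in the text are FPKM as deposited, without the factors. Whether the replicates were separate cultures is not in the labels, and the p-values describe only how these samples vary, and that variation may be technical. Intervals of 95% come from the same fit.

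The members and lists were chosen with earlier results of these data known. Named were all members and, of the wider list, at most 14 genes called in any comparison with a group mean of at least 1 FPKM, by smallest adjusted p. AKR1B1, SLCO3A1, CBR4, PTGER1, ANXA1, LTB4R and PTGFRN fall outside that rule and were chosen after their values were seen. The 5 genes most like PTGS2 needed a symbol and a mean of at least 1 FPKM. Other settings tried were 2 scalings, 2 filters, 2 pseudocounts, limma-voom run on the reads as rebuilt, eBayes without options, a replicate block, the libraries fitted and each library left out. Promoters are RefSeq windows on GRCh38.p14. Figures used matplotlib 3.10.9 in Python 3.11.15.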

Additional observations from a re-analysis of the deposited data

How the results depend on the processing

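Over 20 other settings (19 for HPGD, which fell below the filter when control replicate 3 and lactoferrin+PM2.5 replicate 1 were left out together, and 18 between the exposed groups, where the fit of 6 libraries also lacks it), the calls of PLA2G4A, PTGS1, HPGD and PTGER2 against control held in both exposed groups, and 0 members were called between the exposed groups. Counts of called members stayed between 2 and 3 in each direction against control. Reversed signs were limited to uncalled values: PTGES with PM2.5 against control was -0.03 without control replicate 3 (highest without 1 library 0.21), and -0.03 without control replicate 3 and lactoferrin+PM2.5 replicate 1 together. HPGD between the exposed groups ran from -0.07 to 0.12 when each library was left out. Without that pair of libraries the PTGES difference between lactoferrin+PM2.5 and control was 0.22 (adjusted p = 0.16), compared with 0.40 over all libraries. The cause was not tested. Fold changes of HPGD with PM2.5 ran from -2.44 to -1.19 and those of PLA2G4A from 1.04 to 1.82, with the lowest size at a pseudocount of 1 and the highest in limma-voom. Over all genes, 7 were called between the exposed groups, 16 by limma-voom, 15 without trend and robust options, 13 with the replicate block, 3 without PM2.5 replicate 3, 4 without control replicate 1, and 0 when PM2.5 replicate 1, lactoferrin+PM2.5 replicate 2 or PM2.5 replicate 2 was absent. Same-numbered libraries correlated by -0.07 to 0.18 in their deviations from group means, and differently numbered libraries by -0.18 to 0.14. The ranges overlap, and these values do not settle whether the numbers pair libraries. With the replicate block 3 members were called higher and 3 lower with PM2.5 against control. Depth limits PTGS2 most.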
